A study of Mus musculus with 60 samples.

Results

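Nascent transcription of 9 genes that act in the release of paused RNA polymerase II was measured in mouse embryonic stem cells after knockdown of Esrrb. The genes are Cdk9, Ccnt1, Ccnt2, Hexim1, Aff1, Aff4, Ell, Ell2 and Supt5. They were taken by symbol from 24260 symbols in the nascent RNA tables, all 9 were found, and each is represented by the RefSeq transcript with the highest RPKM (reads per kilobase of transcript, relative to library size) summed over the libraries. The study asked how the loss of enhancer activity that follows Esrrb knockdown acts on genes within their chromatin domain. Of its 60 samples, 4 nascent RNA libraries are used here, and the remaining 56 were not analysed here. All 4 came from E14 cells, a mouse embryonic stem cell line, grown on gelatin with serum and LIF and harvested 72 h after siRNA transfection. The siCtrl group (2 libraries) received a control siRNA, and the siEsrrb group (2 libraries) an siRNA against Esrrb, which encodes an orphan nuclear receptor active in pluripotent cells. RNA was taken from the chromatin pellet, depleted of ribosomal RNA and made into stranded libraries. By the design text, nascent RNA-seq is an exception to the biological replication of the other assays, and no label ties the libraries of a group to separate cultures, so the p-values below measure only the spread between these libraries.

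Soon after initiation, RNA polymerase II pauses downstream of many promoters, held by the factors DSIF and NELF. The kinase P-TEFb, made of CDK9 and a cyclin T, phosphorylates both factors and the polymerase tail and so lets elongation begin. HEXIM1, together with the 7SK RNA and its binding proteins LARP7 and MEPCE, keeps a part of P-TEFb inactive. The super elongation complex brings active P-TEFb to genes on an AFF1 or AFF4 scaffold that also carries an ELL elongation factor. Embryonic stem cells are one of the systems in which pausing has been studied most.

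Aff1 stood apart from the other 8 genes, at 40.3% (replicate 1) and 58.4% (replicate 2) of the siCtrl level. For Ccnt2, Ccnt1 and Ell, each siEsrrb library also lay below each control, by smaller amounts. Hexim1 and Ell2 were higher in both. Of all genes tested, 22.0% lay lower and 21.9% higher without overlap. The libraries of the 2 groups overlapped for Cdk9, Aff4 and Supt5. None of the 9 genes passed the test over all genes (limma adjusted p 0.28 to 0.98), in which 0 of 9739 genes passed (0%).

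The promoters of the 4 genes with the smallest unadjusted limma p (Aff1, Hexim1, Ell2 and Ccnt2) are shown here to set the regulatory sequence beside the values that follow. Each runs over the 250 bases before the annotated start, 5′ to 3′ on the gene's strand, from RefSeq on build GRCm38.p6, whereas the libraries were aligned to mm9. The positions are chr5:103753912-103754161 for Aff1 (the upstream of its 2 annotated starts), chr1:127773914-127774163 for Ccnt2, chr11:103116075-103116324 for Hexim1 and chr13:75707234-75707483 for Ell2, all on the plus strand. Capitals mark GC boxes (GGGCGG), boxes with the letters CCAAT and the cAMP response element (TGACGTCA), each on either strand. A GC box and a CCAAT box overlap at 1 place in Ccnt2.
Aff1: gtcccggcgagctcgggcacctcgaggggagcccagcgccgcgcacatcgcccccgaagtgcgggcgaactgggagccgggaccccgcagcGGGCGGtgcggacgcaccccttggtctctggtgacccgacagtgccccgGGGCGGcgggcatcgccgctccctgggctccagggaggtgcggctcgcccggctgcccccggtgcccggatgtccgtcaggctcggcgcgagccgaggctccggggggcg
Ccnt2: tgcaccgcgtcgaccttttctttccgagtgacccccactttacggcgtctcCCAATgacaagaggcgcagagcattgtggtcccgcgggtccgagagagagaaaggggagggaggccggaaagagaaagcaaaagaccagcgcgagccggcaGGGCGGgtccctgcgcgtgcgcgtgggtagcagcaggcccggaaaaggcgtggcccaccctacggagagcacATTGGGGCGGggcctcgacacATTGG
Hexim1: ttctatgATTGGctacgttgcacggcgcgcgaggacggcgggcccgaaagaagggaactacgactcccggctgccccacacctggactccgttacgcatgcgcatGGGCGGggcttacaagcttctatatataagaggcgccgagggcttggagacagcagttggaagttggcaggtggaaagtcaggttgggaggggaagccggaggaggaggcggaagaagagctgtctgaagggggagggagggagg
Ell2: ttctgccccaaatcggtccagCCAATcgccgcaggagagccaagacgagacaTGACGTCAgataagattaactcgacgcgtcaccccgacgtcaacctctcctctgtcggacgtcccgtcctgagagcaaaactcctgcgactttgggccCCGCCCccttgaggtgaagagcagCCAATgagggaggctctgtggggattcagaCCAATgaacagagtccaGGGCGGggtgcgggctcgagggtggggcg

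A GC box was present in 9 of the 10 promoter entries of the 9 genes, Aff1 having 2 entries, and in 32.7% of all 32851 promoters over the same 250 bases. Aff4 was the gene without one. A CCAAT box was found in 4 entries (Ccnt2, Cdk9, Hexim1 and Ell2), against 33.8% of all promoters. The cAMP response element was found in Ell2 alone, against 1.55% of all. The half-site of estrogen-related receptors (AAGGTCA) was in 0 of the 10 entries and in 4.08% of all promoters, and its extended form (TCAAGGTCA) in 0 and in 0.387%. The TATA box letters TATAAA were in 0 entries, against 12.4% of all. That spelling alone was searched, so a variant such as tatataag in the Hexim1 sequence was not counted. The median GC content was 65.4% over the 10 entries and 52.4% over all promoters. All 32851 promoters were used whether or not their genes were transcribed in these cells, and shares over transcribed genes were not computed. These are matches of letters in a short window and say nothing of binding.

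The libraries held 24764879 and 68002338 reads in siCtrl replicates 1 and 2, and 22363943 and 61857158 in siEsrrb replicates 1 and 2, as recovered from the RPKM. Esrrb itself (NM_011934) had 3.23 and 3.36 RPKM in the controls and 1.38 and 2.20 RPKM in siEsrrb replicates 1 and 2. After scaling this was 44.2% and 67.0% of control, so that both siEsrrb libraries went with their label. Of the defining markers, 6 of 6 for embryonic stem cells were above the expression minimum, with summed levels of 66.8 to 71.3 scaled RPKM (RPKM times a factor per library that aligns the median gene) in siCtrl and 61.5 to 69.5 in siEsrrb. Single markers differed within that sum. Zfp42 had 18.8 and 16.3 in siCtrl and 8.75 and 10.2 in siEsrrb, and Nanog had 5.63 and 6.57 against 3.76 and 4.80, while Pou5f1 had 12.1 and 14.7 against 20.4 and 15.9. All 6 primitive endoderm and all 5 mesendoderm markers were under it, with none at 0 throughout. The 8 fibroblast markers summed to 14.2 and 16.3 in siCtrl and to 14.4 and 16.8 in siEsrrb, and 5 of them, among them Col1a1, were under the minimum. The 4 neuroectoderm markers, all above it, summed to 5.05 and 5.84 in siCtrl and to 7.84 and 8.00 in siEsrrb, with Nes higher (2.66 and 3.02 against 5.31 and 5.92) and Ncam1 lower. Their part in the results below was not tested. In bulk RNA, fewer cells of a type and less RNA per cell cannot be told apart.

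P-TEFb comes first. Cdk9 (NM_130860), the kinase subunit, had 3.91 and 3.39 scaled RPKM in siCtrl replicates 1 and 2 and 4.19 and 3.55 in siEsrrb replicates 1 and 2. Replicate 1 was the higher library in both groups, and the groups overlapped. Relative to siCtrl it stood at 107% in replicate 1 and at 105% in replicate 2, from 604 to 1746 reads per library. The fitted log2 fold change on the log2(RPKM + 0.5) scale was 0.07 (SE 0.12), with a limma adjusted p of 0.87. The 95% counting interval of each replicate's ratio (exact binomial, for counting error only) included 100%, at 95.7% to 120% and 97.8% to 112%.

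Ccnt2 (NM_028399), which encodes cyclin T2, had 6.25 and 6.14 scaled RPKM in siCtrl and 4.93 and 5.25 in siEsrrb. Both siEsrrb libraries lay below both controls, at 78.9% and 85.6% of control. Its log2 fold change was -0.26 (SE 0.09; unadjusted limma p 0.044, adjusted p 0.42). The direction was shared by Ccnt1 (NM_009833), which encodes cyclin T1, with 3.05 and 2.79 scaled RPKM in siCtrl and 2.58 and 2.64 in siEsrrb. This was 84.5% and 94.7% of control, with a log2 fold change of -0.14 (SE 0.08; limma adjusted p 0.59). Both cyclin genes thus lay lower than in the controls while the kinase gene did not, and that difference was not tested.

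Hexim1 (NM_138753), the inhibitor of P-TEFb, had 2.14 and 1.88 scaled RPKM in siCtrl and 2.73 and 2.60 in siEsrrb. Both siEsrrb libraries were above both controls, at 127% and 138% of control, with group means of 2.01 ± 0.187 and 2.67 ± 0.093 scaled RPKM (SD, n = 2 each). The log2 fold change was 0.34 (SE 0.09), higher than that of 92.4% of the genes tested, with an unadjusted limma p of 0.017 and an adjusted p of 0.34. Hexim1 is short and has no intron, so its reads come from 3400 bases that are also the finished RNA, and only 172 to 577 reads per library stand behind its values. The counting interval of the ratio was 103% to 158% in replicate 1 and 122% to 157% in replicate 2.

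**Figure D1:**
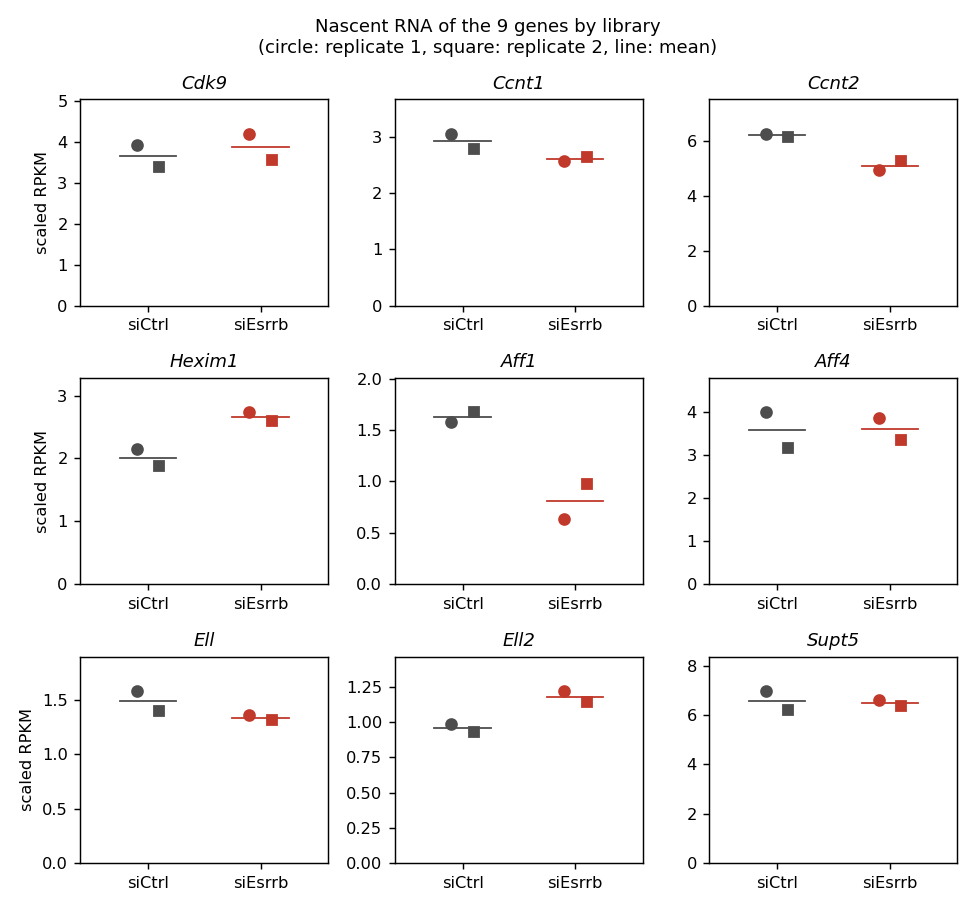
Scaled RPKM (y axis, from 0, one scale per gene) of each of the 9 genes in the siCtrl (grey) and siEsrrb (red) libraries; circles are replicate 1, squares replicate 2 and lines the mean of 2. Aff1, Ccnt2, Ccnt1 and Ell have both siEsrrb points below both siCtrl points, and Hexim1 and Ell2 have both above.

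Among the scaffolds of the super elongation complex, Aff1 (NM_133919) had 1.58 and 1.67 scaled RPKM in siCtrl and 0.635 and 0.976 in siEsrrb. The siEsrrb libraries lay far below the controls and differed between themselves, replicate 1 being the lower. The means were 1.62 ± 0.067 and 0.805 ± 0.241 scaled RPKM (SD, n = 2 each), from 3762, 12429, 1321 and 6444 reads in siCtrl 1, siCtrl 2, siEsrrb 1 and siEsrrb 2. The log2 fold change was -0.71 (SE 0.15; unadjusted limma p 0.0072, adjusted p 0.28), and 1.33% of the genes tested had a lower one. That scale understates the change of a gene at this level, and voom on recovered reads, which adds no RPKM pseudocount, gave -1.02 (limma adjusted p 0.165). Other genes at low levels are affected too: by the same voom fit Hexim1 had 0.43 and Ell2 0.30, against 0.34 and 0.20. Aff1 was the 1 gene of the 9 that was lower by at least 1.5-fold in both replicates with groups apart, against 1.61% of all genes tested in that direction and 2.27% in the other. It was lower in replicate 1 than in replicate 2, as Esrrb was. Whether the 2 genes go together was not tested, and 2 replicates are too few to tell.

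Aff1 has 2 RefSeq transcripts in the tables, of 101161 and 100750 bases with introns, whose starts lie 411 bases apart. The reads that only the longer one holds numbered 21 and 67 in siCtrl replicates 1 and 2 and 8 and 39 in siEsrrb. Per length this was 2.06 and 2.40 RPKM in siCtrl and 0.870 and 1.53 in siEsrrb, so this first stretch of the gene was also lower in both siEsrrb libraries. As a share of control it stood at 43.7% and 65.6%, close to the 40.3% and 58.4% of the whole gene, with wide counting intervals (16.7% to 103% and 43.0% to 98.8%).

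Genes beside Aff1 did not share its direction. Klhl8, the nearest tested protein-coding gene on one side, had a log2 fold change of 0.09 (SE 0.11), and Ptpn13, a phosphatase gene and the nearest tested on the other side, had 0.65 (SE 0.11; limma adjusted p 0.25). Ptpn13 was at 0.374 and 0.368 scaled RPKM in siCtrl and 0.976 and 0.767 in siEsrrb. Over the 18 such neighbours of the 9 genes, log2 fold changes ran from -0.28 to 0.65 and 0 passed the test (limma adjusted p at least 0.25). Among these Cacnb3, a calcium channel subunit gene beside Ccnt1, had 0.61 (SE 0.10). The differences between the 9 genes and their neighbours were not tested.

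Aff4 (NM_033565), the other scaffold, had 3.98 and 3.17 scaled RPKM in siCtrl and 3.85 and 3.34 in siEsrrb. The groups overlapped and the replicates went opposite ways, at 96.7% and 106% of control. Its log2 fold change was 0.01 (SE 0.14; limma adjusted p 0.98), turning to -0.025 with RPKM as deposited and to -0.0018 with quantile normalization. Its controls had a mean of 3.57 ± 0.578 scaled RPKM (SD, n = 2). Mir6920, Gm32048 and Gm25930 overlap Aff4 in the annotation, 9330020H09Rik overlaps Ccnt1 and LOC115488213 overlaps Ell2. Strand use in counting is not stated, so reads of overlapping genes cannot be told apart.

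The ELL elongation factors went in opposite directions. Ell2 (NM_138953) had 0.985 and 0.933 scaled RPKM in siCtrl and 1.22 and 1.14 in siEsrrb. Both siEsrrb libraries were higher than both controls by like amounts, at 124% and 122% of control. The log2 fold change was 0.20 (SE 0.07; unadjusted limma p 0.035, adjusted p 0.41). Ell (NM_007924) had 1.58 and 1.39 scaled RPKM in siCtrl and 1.36 and 1.31 in siEsrrb, lower in both siEsrrb libraries at 85.9% and 94.2% of control. Its log2 fold change was -0.11 (SE 0.08; limma adjusted p 0.63).

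Supt5 (NM_013676), the larger DSIF subunit and itself a substrate of P-TEFb, was the most transcribed of the 9 per length. It had 6.97 and 6.19 scaled RPKM in siCtrl and 6.59 and 6.35 in siEsrrb. Both siEsrrb libraries lay between the controls, at 94.6% and 103% of control. The log2 fold change was -0.02 (SE 0.11; limma adjusted p 0.96), and it turned to 0.057 without siCtrl replicate 1.

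**Figure D2:**
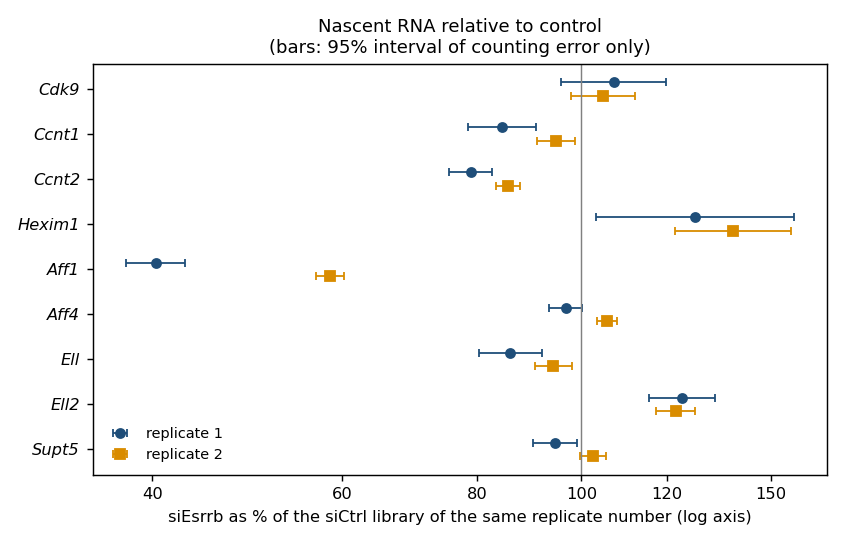
Scaled RPKM of each siEsrrb library as a percentage of the siCtrl library of the same replicate number (x axis, log scale; blue circles replicate 1, orange squares replicate 2), with bars for the 95% interval of counting error only. Aff1 lies at 40.3% and 58.4%, Hexim1 at 127% and 138% and Ell2 at 124% and 122%, while Aff4 and Supt5 lie on both sides of the 100% line.

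In all, 4 of the 9 genes were lower in both siEsrrb libraries (Aff1, Ccnt2, Ccnt1 and Ell) and 2 were higher (Hexim1 and Ell2), where 22.0% and 21.9% of all genes tested were so. An unadjusted limma p under 0.05 was found for 4 of the 9 (Aff1, Hexim1, Ell2 and Ccnt2) and for 11.3% of all genes. The median log2 fold change was -0.02 (-0.07 in replicate 1 and 0.03 in replicate 2), beside -0.00087 over all genes tested. In a voom fit with replicate as a blocking term, although the labels do not pair the libraries, the same 4 genes passed the adjusted test, as did 28.3% of all genes. In that fit the log2 fold changes were -1.04 (SE 0.07) for Aff1, -0.29 (SE 0.06) for Ccnt2, 0.43 (SE 0.11) for Hexim1 and 0.30 (SE 0.06) for Ell2.

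Ordered by level per length, the controls ran from Supt5 (mean 6.58 scaled RPKM) and Ccnt2 (6.20) through Cdk9 (3.65), Aff4 (3.57), Ccnt1 (2.92), Hexim1 (2.01), Aff1 (1.62) and Ell (1.49) to Ell2 (0.959). The libraries of Supt5 and Ccnt2, of Cdk9 and Aff4, and of Aff1 and Ell overlapped within that order. In siEsrrb the order was Supt5 (6.47), Ccnt2 (5.09), Cdk9 (3.87), Aff4 (3.60), Hexim1 (2.67), Ccnt1 (2.61), Ell (1.34), Ell2 (1.18) and Aff1 (0.805). By these means Aff1 stood above Ell and Ell2 in the controls and below both in siEsrrb, although in siCtrl replicate 1 alone Ell was level with it, and Hexim1 reached the level of Ccnt1, with which its libraries overlapped.

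Ratios between 2 genes of one library do not depend on the scaling of libraries. Aff1 was at 0.396 and 0.528 of the RPKM of its paralog Aff4 in siCtrl replicates 1 and 2, and at 0.165 and 0.292 in siEsrrb. Ell2 was at 0.622 and 0.669 of Ell in siCtrl and at 0.899 and 0.869 in siEsrrb. Both ratios separated the groups without overlap, the first downwards and the second upwards. Hexim1 was at 0.548 and 0.554 of Cdk9 in siCtrl and at 0.651 and 0.732 in siEsrrb, also apart. Ccnt1 was at 0.488 and 0.454 of Ccnt2 in siCtrl and at 0.522 and 0.503 in siEsrrb, apart by a smaller step. These ratios are formed from the values already given for the single genes, and the share of other gene pairs that separate was not computed. The differences in these ratios were not tested.

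**Figure D3:**
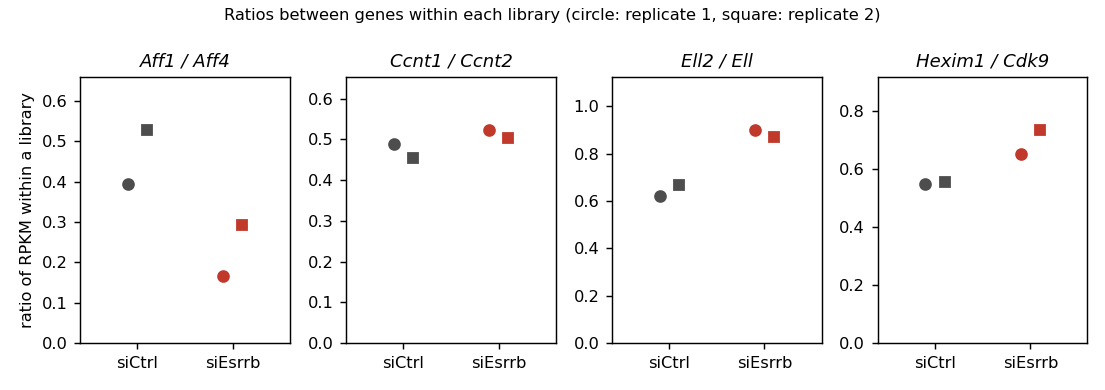
Ratio of the RPKM of 2 genes within each library (y axes, from 0, no unit), siCtrl in grey and siEsrrb in red, circles for replicate 1 and squares for replicate 2. Aff1 over Aff4 is lower in both siEsrrb libraries (0.165 and 0.292) than in both controls, and the other 3 ratios are higher.

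Of 55 other genes of the pathway, in 7 lists, all were found and 50 were above the expression minimum. None passed the test over all genes (limma adjusted p at least 0.28), while 3 had an unadjusted limma p under 0.05, beside 11.3% of all genes. Their groups did not overlap for 24 of 50 (48.0%, beside 43.8% of all genes tested), with 12 higher and 12 lower in siEsrrb, and their median log2 fold change was -0.02. None of the 50 was apart by at least 1.5-fold in both replicates, as Aff1 was. Few of all genes tested were (1.61% lower and 2.27% higher), so a list of this size would hold few or none. Aff3, under the expression minimum and so not among the 50, was higher by that much, at 248% and 204% of control.

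Partners of Hexim1 in the 7SK particle lay in the same direction as Hexim1. Larp7, which binds and stabilizes 7SK RNA, had 0.838 and 0.803 scaled RPKM in siCtrl and 1.26 and 1.09 in siEsrrb (log2 fold change 0.34, SE 0.08; unadjusted limma p 0.012, adjusted p 0.32). Mepce, the enzyme that caps 7SK, had 3.13 and 2.82 in siCtrl and 3.88 and 3.27 in siEsrrb (0.23, SE 0.11; limma adjusted p 0.54). The miRNA genes Mir302a to Mir302d and Mir367 and the long noncoding RNA gene Gm51018 overlap Larp7, and reads of theirs cannot be told apart from those of Larp7. Hexim2, the paralog of Hexim1, was under the expression minimum, with 0.414 and 0.367 scaled RPKM in siCtrl and 0.453 and 0.433 in siEsrrb. These 3 genes were grouped after their values were seen. Over the list of regulators as a whole, 2 of 8 tested genes (25.0%) did not overlap between the groups, beside 43.8% of all genes. The other 6 tested genes overlapped, among them the demethylase gene Jmjd6 with a log2 fold change of -0.12. The median over the 8 tested was 0.05, and the 7SK RNA was not analysed here.

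Of the other genes of the super elongation complex only 3 were tested, and the groups overlapped for each. Of all genes tested 43.8% lay apart, so 3 genes are too few to set against that share. Ell3, the third ELL factor, had -0.12 (SE 0.20), Eaf1, an ELL partner, -0.04 and the YEATS protein gene Mllt1 0.02, all as log2 fold changes. The other 4 of 7 (Aff2, Aff3, Eaf2 and Mllt3) were under the minimum. Aff3, a further AFF paralog, was among these and had 0.188 and 0.149 scaled RPKM in siCtrl and 0.466 and 0.305 in siEsrrb, higher in both by at least 1.5-fold, where Aff1 was lower. It was not tested in the main fit. Without a filter on low values all 55 pathway genes were tested and 0 passed.

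Genes of the pausing factors lay near 0. Of 5 genes of DSIF and NELF apart from Supt5, 2 lay above and 2 below the controls without overlap (43.8% of all genes lay apart in either direction), with log2 fold changes from -0.11 to 0.12. The NELF subunit genes Nelfe and Nelfcd had 0.11 (SE 0.08) and -0.11 (SE 0.09), and Supt4a, the small DSIF subunit gene, had 0.12 (SE 0.11). The CTD kinase genes had a median of -0.01, with Cdk12, a kinase of later elongation, at 0.13 (SE 0.09), Cdk7, the TFIIH kinase, at -0.07 and its partner Mnat1 at -0.03.

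Elongation factor genes went both ways. Among 11 genes of the PAF1 complex and of elongation, 5 lay above and 3 below the controls without overlap (21.9% and 22.0% of all genes did), and the median was -0.03. The PAF1 complex subunit gene Ctr9 had 1.78 and 1.82 scaled RPKM in siCtrl and 2.40 and 2.34 in siEsrrb (log2 fold change 0.32, SE 0.07; unadjusted limma p 0.0075, adjusted p 0.28). Tcea1, which encodes the factor TFIIS that rescues stalled polymerase, had 2.17 and 1.93 in siCtrl and 1.68 and 1.61 in siEsrrb (-0.25, SE 0.08; limma adjusted p 0.41). Rtf1 had -0.13. Of the little elongation complex, which serves small nuclear RNA genes, Zc3h8 had -0.17 (SE 0.07), Ice1 -0.08 and Ice2 -0.04. The 14 genes of Integrator, which can end transcription at paused polymerase, had a median of -0.02, with Ints5 at 0.17 (SE 0.08), Ints7 at -0.09 and Ints9 at -0.10.

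**Figure D4:**
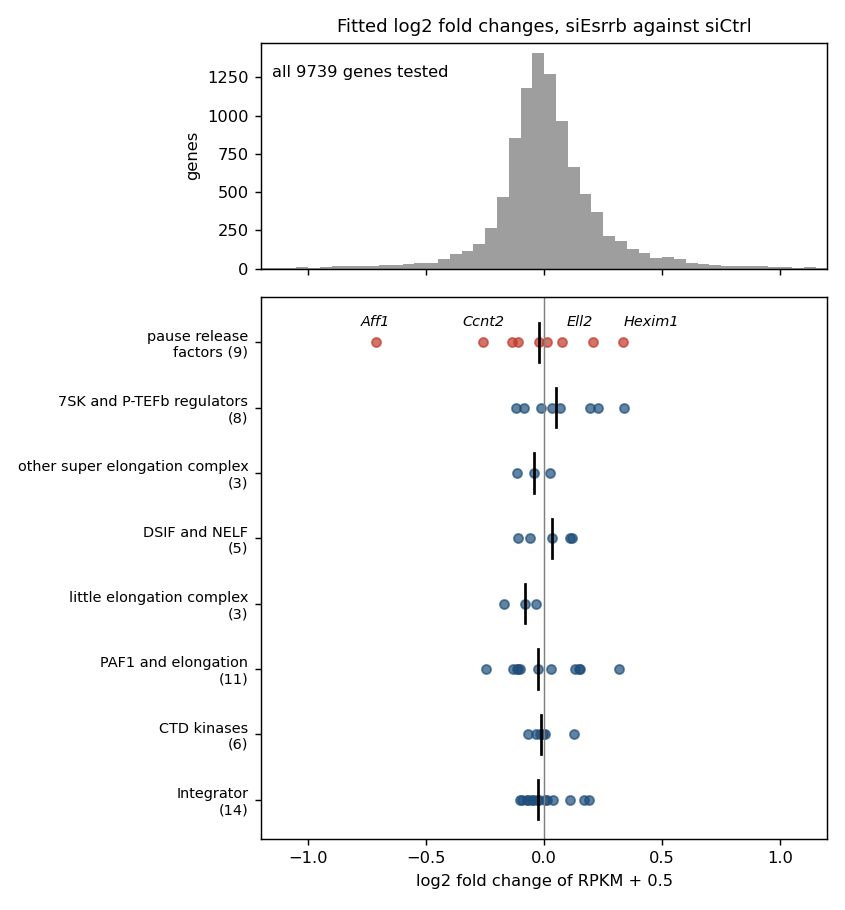
Fitted log2 fold changes of RPKM + 0.5, siEsrrb against siCtrl: above, the histogram over all 9739 genes tested (number of genes on the y axis, values beyond 1.2 either way not drawn); below, each tested gene of the 9 pause release factors (red) and of the 7 pathway lists (blue), with black bars for medians. Aff1 at -0.71 lies outside the range of the tested genes of the pathway lists, -0.25 to 0.34. Listed genes under the expression minimum, among them Aff3, are not drawn.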

How the data were processed

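Nascent RNA-seq of 2 siCtrl and 2 siEsrrb libraries was used. The authors deposited 1 RPKM value per RefSeq transcript (34929 in each library), per the file headers. CASAVA 1.4 and TopHat2 (all libraries), Bowtie 1.1.1 and Bowtie2 (replicate 1) and build mm9 are named in the submitters' processing notes. No source used here gives the counting program, strand use or filters. Symbols came from GRCm38.p6 accessions and were found for 34631 transcripts.

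RPKM were scaled by median-of-ratios factors (0.925 to 1.09), log2(RPKM + 0.5) was tested with limma 3.58.1 in R 4.3.3 (mean-variance trend, 2 groups, two-sided) over the 9739 genes with a mean of at least 0.5, and Benjamini-Hochberg adjustment at 0.05 covered all of them. Whole reads came out for 31766 of 31771 transcripts above 0 (within 0.0002 of a read), on lengths that include introns. They served for depths, counting intervals and voom, which without a block passed 0 genes. The scripts were tested on simulated data.

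The named genes are the 9 members, Esrrb, and from each pathway list up to 3 genes with the lowest unadjusted p, besides those named as chosen later. Members and lists were chosen with earlier results of these data known. By Euclidean distance of centred log2 values over the 4 libraries, the 3 genes most like Cdk9 were Scamp4, 2310061I04Rik and Nop9. Alternatives varied pseudocount, filter, scaling, transcript choice, test, block and libraries.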

Additional observations from a re-analysis of the deposited data

How the results depend on the processing

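Over 15 alternatives, all planned, Aff1, Ccnt1, Ccnt2 and Ell kept a negative and Hexim1 and Ell2 a positive log2 fold change wherever they were tested. Aff1 ranged from -1.04 to -0.53, Hexim1 from 0.26 to 0.43 and Ell2 from 0.15 to 0.30. None of the 9 genes and none of the pathway genes passed in 14 of these alternatives. With voom and a replicate block, 4 of the 9 and 10 of 50 pathway genes passed, and 2761 of 9739 genes did. The replicate block without voom passed 0 genes. No label states that pairing, and the difference between replicates 1 and 2 correlated at 0.38 between the groups across genes. At a mean RPKM of at least 2, where Aff1, Ell and Ell2 are not tested, 3 genes did not overlap between groups, since only 6 were tested. The count of members without overlap, 6 in the main setting, also moved with the scaling. It was 7 with RPKM as deposited, Cdk9 then being higher, and 5 with quantile normalization. The share of all genes without overlap is given only for the main setting (43.8%). Whether that share moved with the setting as well is therefore not shown. Aff4 had -0.025 unscaled and -0.0018 with quantile normalization. Leaving out 1 library in turn, Cdk9 ran from -0.031 to 0.18, Aff4 from -0.13 to 0.16 and Supt5 from -0.099 to 0.057, so these 3 have no settled direction. Aff1 was -0.90 without siEsrrb replicate 2 and -0.53 without siEsrrb replicate 1. Depth limits the precision of Hexim1 (172 reads in the library with fewest) and of the first 411 bases of Aff1.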
